A study of Sus scrofa with 12 samples.

Results

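Small RNA from the small intestine of piglets weaned for 1 day was compared with that of piglets still feeding from the sow. The comparison takes 6 of the 12 libraries of the study, and it is described across known microRNAs, meaning identifiers that carry the pig species prefix in the deposited lists. Counts fell on 333 known microRNAs in the 6 libraries and on 337 in all 12, among 5850 small RNA names, and 295 known microRNAs had enough counts for a test. Of the 42 known microRNAs below that filter, 38 were seen in the 6 libraries, with at most 13 counts in a library.

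Both groups were of the Big white (Large White) breed, and the labels give the tissue as intestine cells in both. The feeding group (3 libraries) is described as being past 21 days of age and breast-fed. The weaned group (3 libraries) is described as weaned for 1 day after that age, so as the labels read every piglet suckled for at least 21 days. The labels do not give the age of the feeding piglets at sampling, the part of the small intestine, the litter or the sex, nor do they say that each library is a separate animal. The p-values therefore measure the spread between libraries, part of which may be technical.

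MicroRNAs are short RNAs that guide Argonaute proteins to messenger RNAs and lower their translation and stability. Many are typical of one cell type, so a piece of gut wall gives a mixed profile of epithelium, muscle, connective tissue, nerves, blood and immune cells. In piglets, early weaning is known for a transient loss of villus height and an inflammatory response of the mucosa, as the diet changes from milk to solid feed. In bulk tissue, fewer cells of a type and less RNA per cell cannot be told apart, and this applies to each cell type list described here.

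The 6 libraries held 26234489 to 27784417 counts. The share of counts on known microRNAs was 64.0% ± 3.32 in the weaned group and 59.6% ± 9.30 in the feeding group (SD, n = 3; exact permutation test, two-sided, p = 0.7). The difference of 4.40 percentage points turned to -0.841 without feeding replicate 2, in which 40.4% of the counts lay in exons, introns and intergenic sequence. A library showed 319, 319 and 322 known microRNAs in the weaned group and 312, 312 and 316 in the feeding group. These numbers did not overlap between the groups (exact permutation test, two-sided, p = 0.1, the smallest that 3 against 3 libraries allow). Depth on known microRNAs differed too, at 13149096 to 17521791 counts in the feeding and 16722202 to 18331061 in the weaned libraries. Its part in the numbers seen was not tested.

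Gut epithelial microRNAs led the profile by mean over the 6 libraries. In weaned replicate 1 the most abundant was instead miR-143-3p, with 20.7% of its known microRNA counts. In order of mean normalised level (CPM, counts scaled to library size with TMM factors), the 10 most abundant microRNAs were miR-194b-5p, miR-192, miR-191, miR-143-3p, miR-21, miR-26a, let-7a, miR-92a, miR-194a and miR-181a. Of these, miR-194b-5p, miR-192 and miR-194a are epithelial microRNAs of the gut and liver, and miR-143-3p is a smooth muscle microRNA. The 10 held 61.3% ± 2.55 of the known microRNA counts in the weaned group and 66.2% ± 4.56 in the feeding group (exact permutation test, p = 0.2). The labelled tissue thus carries its defining epithelial markers, while the liver microRNA miR-122 stood at 29.1 CPM at most in any library.

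Weaned replicate 1 stood apart from the other libraries. In it 12 known microRNAs were over 2-fold above each of the other 5 libraries, among them miR-1, miR-133a-3p, miR-133b, miR-143-3p and miR-145-5p of muscle, with miR-99a, miR-218-5p, miR-9, miR-9-1, miR-490-3p, miR-708-5p and miR-2366. Conversely miR-31 was over 2-fold below each other library. On the first principal component of the known microRNAs (28.8% of the variance) this library lay at 12.1 and the others between -4.32 and 0.09. Feeding replicate 1 lay at 9.39 on the second component (24.6%) against -5.84 to 2.91 for the others. That library was over 2-fold above each other one for miR-194b-5p and miR-874, and over 2-fold below for miR-196a, miR-196b-5p, miR-27b-5p and miR-9-2. Of the log2 differences between weaned (1 day) and feeding libraries printed here, those with groups apart or of at least 0.5 carry the value without a library wherever leaving it out moved them by over 1.5 times.

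No known microRNA differed between the groups past the adjusted threshold. With edgeR's quasi-likelihood test, 0 of 2453 small RNAs (percent called 0) and 0 of the 295 known microRNAs had a Benjamini-Hochberg adjusted p under 0.05, and the smallest adjusted p was 0.847. An unadjusted p under 0.05 was reached by 74 small RNAs (3.02%) and by 14 known microRNAs (4.75%). Of these 14, 8 were higher after 1 day of weaning (2.71% of 295, against 1.75% of all small RNAs) and 6 were lower (2.03%, against 1.26%). The 8 were miR-10b, miR-129a-5p, miR-99a, miR-224, miR-451, miR-206, miR-143-3p and miR-1, and the 6 were miR-218b, miR-676-3p, miR-194a, miR-874, miR-192 and miR-676-5p. DESeq2 called 20 small RNAs, of which 1 was a known microRNA (miR-218b, adjusted p = 0.0354), and limma called 0. Without the filter on low counts edgeR called 23, again with 1 known microRNA (miR-194a, adjusted p = 0.001).

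The spread between libraries limits what these groups can show. The median standard error of a log2 difference was 0.52 over known microRNAs and 0.39 over the 140 with a mean of at least 100 CPM. Among those 140, the highest library of a group stood at a median of 1.52 times the lowest in the feeding group and 1.46 times in the weaned group. Differences of 2-fold or more were seen for 19 known microRNAs upward and 8 downward, of which 5 and 4 had a mean of at least 100 CPM. The standard errors come from 1 fit over all 12 libraries, so the groups weaned for longer enter them too. In the first library of the group weaned for 7 days, 62.2% of the counts lay in exons, introns and intergenic sequence.

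More known microRNAs lay above feeding than below it. The log2 difference was positive for 196 of 295 (66.4%), with a median of 0.17, and all small RNAs had a median of 0.00. With 1 library left out, 163 to 205 were above 0 and the median ran from 0.04 without feeding replicate 2 to 0.21 without feeding replicate 3. Every weaned library lay above every feeding library for 38 known microRNAs (12.9%, against 5.5% of all small RNAs). Every weaned library lay below for 13 (4.41%, against 2.32%). This balance moved with the scaling: with library factors taken from known microRNAs alone the median was 0.04, a shift of -0.13, and 160 (54.2%) were above 0. On that scale the groups were apart upward for 14 and downward for 20, so a direction within about 0.13 of 0 depends on the scale. The counts of list members above 0 given further on are to be read beside these shares of 66.4% and 54.2%. The plot of difference against level shows both the few large values and the many small ones.

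**Figure D1:**
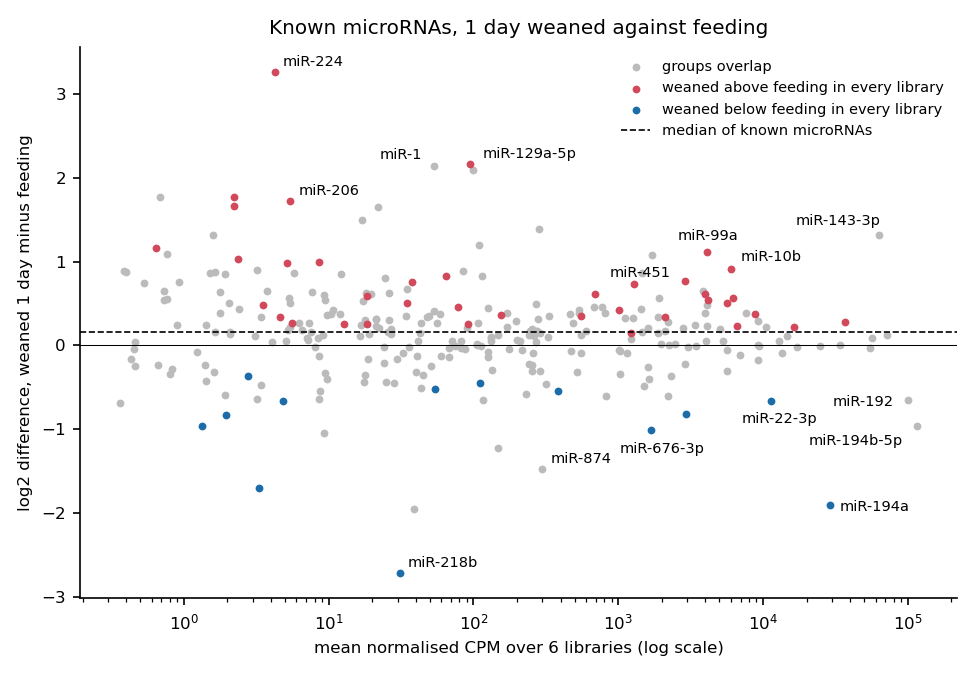
Log2 difference (weaned 1 day minus feeding, edgeR, main scaling) against mean normalised CPM over 6 libraries (log axis) for the 295 known microRNAs tested; each point is 1 microRNA, red and blue where the 3 weaned libraries all lie above or all below the 3 feeding libraries. Most points lie within 1 of 0, and the dashed line marks the median of 0.17.

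For some numbers shared by several names, the counts lay under different names in different libraries, and this bears on several of the smallest p-values. For miR-199, a microRNA of mesenchyme, miR-199a-3p stood at 4942, 872 and 5518 CPM in the feeding libraries and 5478, 6760.0 and 1106 in the weaned ones. Its sister name miR-199b-3p stood at 1312, 6456 and 1347 in the feeding and 1153, 1533 and 6335 in the weaned libraries. Levels of 3 libraries are given in the order of replicates 1 to 3, and in a pair joined by "against" the feeding libraries come first. In each library one name was high where the other was low, while all miR-199 names summed ranged only 1.35-fold over the 6 libraries. The rule by which a read that fits several names was counted is not given in the sources used here. An exchange of reads between names was not tested.

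Counts of miR-218, which in mammals is encoded within SLIT genes and is abundant in motor neurons, also lay under different names in different libraries. Here the summed names ranged 5.04-fold over the 6 libraries, more widely than those of miR-199. Of all known microRNAs, miR-218b had the smallest p. It stood at 54.1, 16.1 and 90.8 CPM in the feeding libraries and 6.11, 11.6 and 6.80 in the weaned ones (log2 difference -2.71 ± 0.77, SE; edgeR, adjusted p = 0.847). The groups did not overlap. The names miR-218-5p (23.5, 44.7 and 43.9 against 401, 1.35 and 77.1) and miR-218 (6.66, 82.7 and 1.24 against 13.9, 97.1 and 4.76) held most counts in other libraries. Summed, the 3 names gave 83.8, 144 and 139.8 against 422, 115 and 89.9 and a log2 difference of 0.77 ± 0.60 (edgeR, adjusted p = 1), which was -0.24 without weaned replicate 1, so the sign of the sum rests on that library. Without weaned replicate 1 the value for miR-218b was -2.54.

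The neuronal microRNA miR-129 also had counts under different names in different libraries, with a 3.46-fold range of the summed names. The name miR-129a-5p stood at 61.3, 9.39 and 33.2 CPM in the feeding libraries and 226, 111 and 127 in the weaned ones (2.16 ± 0.70; edgeR, adjusted p = 0.847). The groups did not overlap. The name miR-129b ran the other way, at 10.6, 73.8 and 100.3 against 33.02, 7.52 and 7.12 (-1.95 ± 1.07, -3.07 without weaned replicate 1). The sum of the miR-129 names was 79.3, 88.7 and 147 against 274, 132 and 148 and the groups overlapped (0.81 ± 0.50, 0.43 without weaned replicate 1; edgeR, adjusted p = 0.826).

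Over the whole list, 71 numbers had more than 1 tested name, and in 47 of them at least 2 names held 10% or more of the counts. In 25 of the 47 the sum was steadier over the 6 libraries than each of those names. In 7 of them (miR-9, miR-23, miR-129, miR-199, miR-218, miR-450 and miR-490) 1 name ranged over 3 times as widely as the sum. A sum can also be steadier than its members without any exchange of counts between names. Some of the 25, such as miR-140 and miR-424, join only the 2 arms of 1 precursor, so the count of 25 does not measure exchange. With names summed by number, 0 of 2347 features passed the adjusted threshold with edgeR, and 9 of 188 numbers had an unadjusted p under 0.05, 6 higher and 3 lower. These 9 were miR-676, miR-10, miR-224, miR-143, miR-451, miR-192, miR-874, miR-1 and miR-206.

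**Figure D2:**
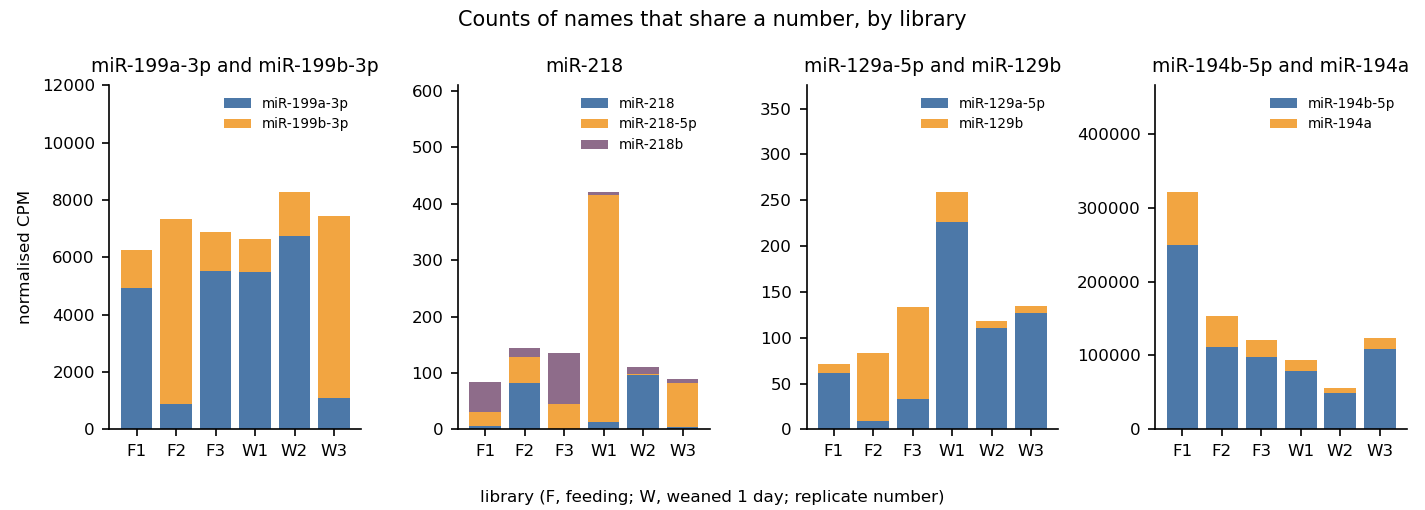
Stacked normalised CPM (linear axis) of names that share a number in each of the 6 libraries (F, feeding; W, weaned 1 day; the digit is the replicate). The 2 miR-199 names trade places in F2 and W3 while their sum is steady, and miR-218 and miR-129 counts sit under different names in different libraries.

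The absorptive gut epithelium list was lower after 1 day in 5 of 5 tested members, with a median log2 difference of -0.81 against 0.17 over all known microRNAs. These microRNAs depend in mammals on hepatocyte nuclear factors and mark the enterocyte. The most abundant microRNA of the comparison, miR-194b-5p, stood at 249865, 111364 and 98377 CPM in the feeding libraries and 78813, 48599 and 109128 in the weaned ones. The groups overlapped, and the difference of -0.96 ± 0.80 was -0.41 without feeding replicate 1, its highest library.

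The second most abundant, miR-192, stood at 154796, 113678 and 97246 CPM in the feeding and 55859.8, 73124 and 104928 in the weaned libraries (-0.64 ± 0.28; edgeR, adjusted p = 0.847). Weaned replicates 1 and 2 lay below every feeding library and weaned replicate 3 lay within their range. The near-identical sister of miR-194b-5p, miR-194a, stood at 71789.6, 42234 and 22239.7 in the feeding and 14876, 6962 and 14757 in the weaned libraries, with the groups apart (-1.90 ± 0.79; edgeR, adjusted p = 0.847). The miR-194 names summed to 319774, 153894 and 124035 against 93866, 57808 and 125393 CPM with the groups overlapping (-1.11 ± 0.78; edgeR, adjusted p = 0.934), and the difference was -0.56 without feeding replicate 1. The precursor of miR-194a lies beside that of miR-192 on chromosome 2 (7285466 to 7285746 for both, Sscrofa11.1, RefSeq annotation).

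The remaining members were less abundant. Levels of miR-215, which shares its seed with miR-192, were 5098, 2864 and 3228 CPM in the feeding and 1803, 1740.5 and 2817 in the weaned libraries, with the groups apart (-0.81 ± 1.02, -0.52 without feeding replicate 1). It was named after its values were seen. The passenger arm miR-194b-3p was at 13.9, 10.4 and 6.46 against 4.42, 4.69 and 11.99 (-0.55 ± 0.59, and -1.17 without weaned replicate 3 to -0.26 without feeding replicate 1), with overlap. The precursors of miR-215 and miR-194b are neighbours on chromosome 10 (9704606 to 9704987).

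Summed, the 5 epithelial members gave 481562, 270151 and 221098 in the feeding libraries and 151356, 130431 and 231642 in the weaned ones, so the highest weaned library lay above the lowest feeding one. The list median was -0.71 without weaned replicate 1 and -0.44 without feeding replicate 1, with 0 of 5 members above 0 in the latter case. Smooth and striated muscle microRNAs were high in weaned replicate 1 (205399 CPM summed, against 33427 to 42818 in the other 5 libraries). Their part in the epithelial difference was not tested. The general epithelial list had 2 tested members, 1 above 0 (0.65) and 1 below. Its median was 0.17 (-0.29 without weaned replicate 1 to 0.36 without weaned replicate 2). The member below 0 was miR-429 of the miR-200 family. It stood at 5426, 7728 and 5673 CPM in the feeding and 3223, 5116 and 6919 in the weaned libraries, with overlap (-0.30 ± 0.42). The enteroendocrine microRNA miR-7 overlapped too, at 1450.2, 2262 and 2203 in the feeding and 1605, 2986 and 2102 in the weaned libraries (0.18 ± 0.47), and its difference was -0.09 without weaned replicate 2.

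The 2 arms of miR-676, which is X-linked in human, were both lower with the groups apart. The abundant arm miR-676-3p stood at 3205, 1697 and 1871 CPM in the feeding libraries and 1213, 969 and 1196 in the weaned ones (-1.0 ± 0.33; edgeR, adjusted p = 0.847). Without feeding replicate 1, its highest library, the difference was -0.67. The rarer arm miR-676-5p was at 6.73, 2.69 and 5.84 CPM in the feeding and 2.21, 1.35 and 1.12 in the weaned libraries (-1.70 ± 0.77; edgeR, adjusted p = 0.847). With known microRNAs tested alone, miR-676-3p had the smallest p (log2 difference -1.13 ± 0.28, edgeR, adjusted p = 0.379).

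Other microRNAs with low values after weaning were tied to single libraries to different degrees. Levels of miR-22-3p, a microRNA of muscle and many other tissues that is also abundant in milk, were 18186, 10207 and 13292 CPM in the feeding and 7384, 9314 and 9749.9 in the weaned libraries. Here the groups were apart (-0.66 ± 0.30, -0.42 without feeding replicate 1; edgeR, adjusted p = 0.847). Its partner arm miR-22-5p was at 383, 204 and 237 in the feeding and 146, 201 and 205 in the weaned libraries with overlap (-0.58 ± 0.50, -0.26 without feeding replicate 1). Levels of miR-874 were 901, 139.6 and 274 in the feeding and 227, 126 and 119 in the weaned libraries (-1.48 ± 0.63; edgeR, adjusted p = 0.847), and the difference was -0.40 without feeding replicate 1.

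Levels of miR-1285 (171, 411 and 42.1 against 99.00, 96.6 and 72.1) rested on feeding replicate 2 in the same way (-1.22 ± 0.95, -0.28 without feeding replicate 2). Smaller differences were measured for miR-130b (-0.52 ± 0.37), miR-532-5p (-0.40 ± 0.29) and miR-151-3p (-0.54 ± 0.45, named after its values were seen). The groups were apart for miR-130b and miR-151-3p. The X-linked cluster of miR-532, miR-500 and miR-362 was lower in 4 of 4 members, with a median of -0.27 (0.11 without feeding replicate 1 and -0.57 without feeding replicate 2), and the miR-183, miR-96 and miR-182 cluster of sensory and epithelial cells in 3 of 3, with a median of -0.34 (-0.12 without weaned replicate 1 and -0.57 without weaned replicate 3).

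**Figure D3:**
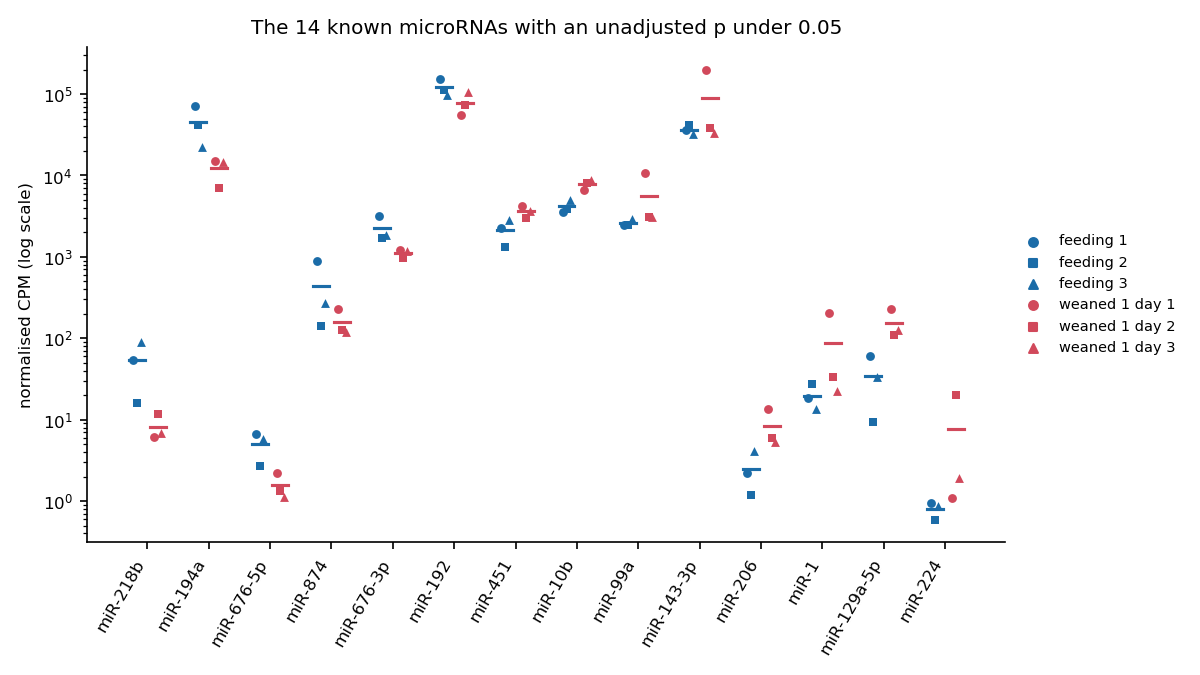
Normalised CPM (log axis) by library of the 14 known microRNAs with an unadjusted p under 0.05, ordered by log2 difference; symbols mark the replicate and bars the mean of 3 libraries. Weaned replicate 1 (red circles) is far above the other weaned libraries for miR-143-3p, miR-1 and miR-99a, as is replicate 2 (red square) for miR-224.

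MicroRNAs of the HOX clusters, which lie between genes that set position along the body axis, were higher in 6 of 6 tested members. The list median was 0.66, and it ran from 0.36 without weaned replicate 3 to 0.79 without weaned replicate 1, with 5 to 6 of 6 above 0. Levels of miR-10b, from the HOXD cluster, were 3575, 3839 and 5062 CPM in the feeding libraries and 6613, 8014 and 8776 in the weaned ones. The groups were apart, with replicates close to each other (0.91 ± 0.26; edgeR, adjusted p = 0.847), and leaving out any 1 of the 6 libraries gave 0.75 to 1.08.

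From the HOXB cluster, miR-10a-5p stood at 5045, 4800.2 and 5256 in the feeding and 6081, 6062 and 10148 in the weaned libraries (0.56 ± 0.31, 0.27 without weaned replicate 3), and its passenger arm miR-10a-3p, named after its values were seen, at 24.02, 33.6 and 26.8 in the feeding and 39.7, 37.6 and 65.95 in the weaned libraries (0.76 ± 0.45, 0.46 without weaned replicate 3). Both had the groups apart, but with known microRNAs scaled alone miR-10a-3p overlapped. Summed, the miR-10 names gave 8592, 8689 and 10637 against 12758, 14683 and 19219 CPM (0.74 ± 0.28; edgeR, adjusted p = 0.826), again apart. The miR-196 pair was far more variable. Levels of miR-196b-5p were 203, 2094 and 1007 CPM in the feeding and 1355, 719.8 and 4889 in the weaned libraries (1.08 ± 1.16, 0.58 without feeding replicate 1 and 1.76 without feeding replicate 2), and the difference was -0.09 without weaned replicate 3. Levels of miR-196a, named after its values were seen, were 213, 1710.1 and 1727 in the feeding and 956, 1528 and 2436 in the weaned libraries (0.43 ± 0.89, and -0.07 without feeding replicate 1). The lowest miR-196 library, feeding replicate 1, was also the library with the highest miR-194b-5p. The member with the smallest difference, miR-615, stood at 51.1, 41.03 and 46.5 in the feeding and 87.4, 52.3 and 44.7 in the weaned libraries (0.41 ± 0.52).

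Muscle microRNAs were higher in 12 of 12 tested members, with a median of 1.31, and weaned replicate 1 held the highest level for 10 of them. Without that library 7 of 12 were above 0 and the median was 0.19, against 0.11 over all known microRNAs. Levels of miR-143-3p, which holds smooth muscle in its contractile state, were 36086, 41287 and 31981 CPM in the feeding libraries and 200265, 38623 and 33039 in the weaned ones (1.31 ± 0.56; edgeR, adjusted p = 0.847). Without weaned replicate 1 the difference was -0.02. Its cluster partner miR-145-5p stood at 1194, 992 and 908 in the feeding and 3224, 1126 and 1262 in the weaned libraries (0.86 ± 0.79, and 0.21 without that library), and was named after its values were seen.

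Striated muscle microRNAs showed the same library. Levels of miR-1 were 18.3, 27.2 and 13.7 CPM in the feeding and 205, 33.6 and 22.6 in the weaned libraries (2.14 ± 0.93; edgeR, adjusted p = 0.847), with 0.51 left without weaned replicate 1. The miR-133 pair turned sign without it: miR-133a-3p went from 1.39 ± 0.68 to -0.13 and miR-133b from 1.19 ± 1.12 to -0.14. In miR-206, a skeletal muscle microRNA at a low level, the groups were apart (2.22, 1.18 and 4.12 against 13.6, 5.90 and 5.35 CPM; 1.72 ± 0.74, and 1.16 without that library). Counts of miR-490 also lay under different names in different libraries: miR-490 alone had a difference of 0.09 ± 0.96 and miR-490-3p stood at 5.18, 15.7 and 11.2 in the feeding and 85.8, 14.2 and 0.482 in the weaned libraries.

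**Figure D4:**
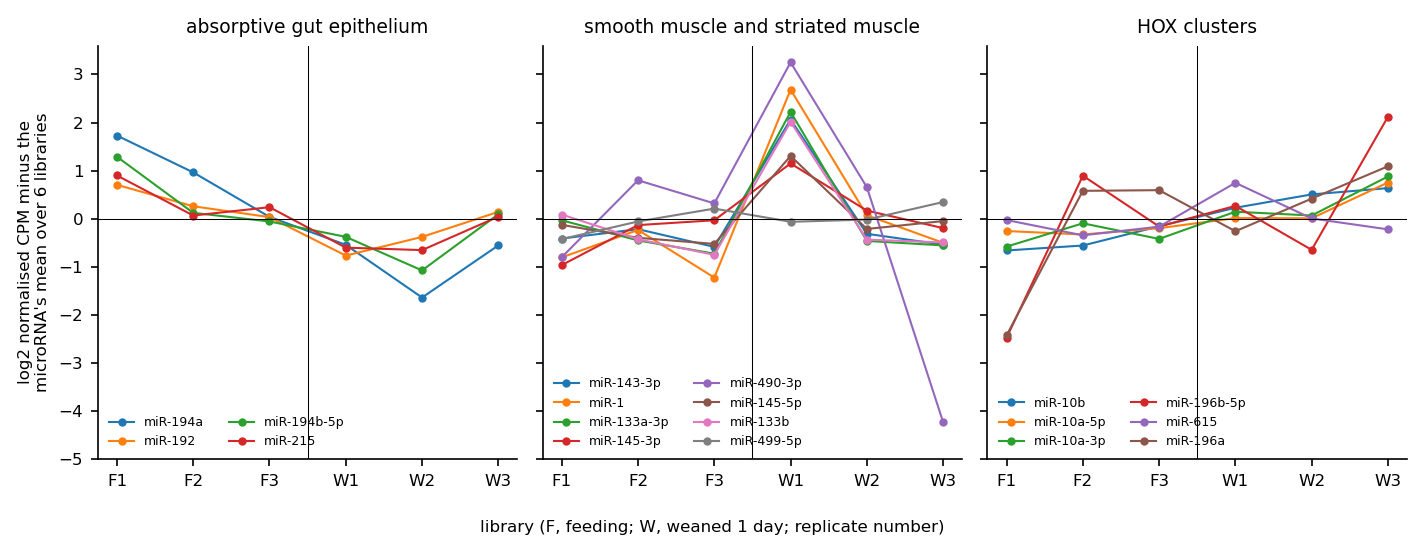
Log2 normalised CPM of each list member with a mean of at least 10 CPM, minus its own mean over the 6 libraries, for 3 lists (F, feeding; W, weaned 1 day; the digit is the replicate; lines join values of 1 microRNA). Epithelial members lie lower in W1 and W2 than in F1, all muscle members plotted except miR-499-5p are highest in W1, and miR-196a and miR-196b-5p are lowest in F1.

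The miR-99, miR-100 and miR-125 partners of let-7 were higher in 5 of 5 members, with a median of 0.48, which ran from 0.21 without weaned replicate 1 to 0.71 without weaned replicate 3. Levels of miR-99a, encoded beside let-7c on chromosome 13, were 2489.8, 2439 and 2884 CPM in the feeding and 10729, 3086 and 3092 in the weaned libraries (1.11 ± 0.45; edgeR, adjusted p = 0.847). The groups were apart on this scale, by a small margin outside weaned replicate 1 (0.25 without it). With known microRNAs scaled alone they overlapped. Both miR-100 (3078, 2485 and 3871 against 6404, 4066 and 3973; 0.61 ± 0.32, 0.36 without feeding replicate 2 and 0.36 without weaned replicate 1) and miR-125a (2083, 1659.6 and 1806 against 2769, 2121 and 2147; 0.34 ± 0.27, 0.18 without feeding replicate 2 and 0.21 without weaned replicate 1) had the groups apart, and miR-99b did not (0.48 ± 0.36). With known microRNAs scaled alone, miR-100 and miR-125a overlapped as well. The names miR-100 and miR-99b were added after their values were seen.

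The let-7 family, which restrains growth genes in differentiated cells, was higher in 8 of 9 members by small amounts, beside 66.4% of all known microRNAs. The family median was 0.23 (0.11 without feeding replicate 2 to 0.29 without weaned replicate 3). Levels of let-7a were 36009, 32886 and 30184 CPM in the feeding and 43172, 40638 and 36482 in the weaned libraries (0.28 ± 0.23), and levels of let-7f, named after its values were seen, 7506, 8224 and 7399 in the feeding and 10033, 10208 and 9873 in the weaned libraries (0.38 ± 0.24). Both had the groups apart, as did let-7c and miR-98. With known microRNAs scaled alone, let-7a and let-7f overlapped and 7 of 9 members were above 0. The lowest member, let-7i, had a difference of -0.01 ± 0.66, and the largest difference was that of let-7e (0.57 ± 0.36, 0.21 without weaned replicate 1). In the cluster of let-7e, miR-99b and miR-125a on chromosome 6 (58331566 to 58332280) the median was 0.48, with 0.21 without weaned replicate 1 and 0.25 without feeding replicate 2.

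The lymphocyte list lay above 0 in 9 of 10 members, beside 66.4% of all known microRNAs. Its median was 0.39 (0.20 without feeding replicate 2 to 0.59 without feeding replicate 3). Levels of miR-155-5p, which is induced in activated lymphocytes and macrophages, were 646, 876 and 1365 CPM in the feeding libraries and 1585, 1531 and 1677 in the weaned ones. Groups were apart (0.73 ± 0.55; edgeR, adjusted p = 1), with the weaned libraries close together. Levels of miR-146a-5p, a brake on Toll-like receptor signalling, were 2757, 3032 and 4468 in the feeding and 5300.0, 5059 and 4568 in the weaned libraries (0.54 ± 0.32, 0.35 without feeding replicate 2). Levels of miR-150 of mature lymphocytes were 4898, 3563 and 5591 in the feeding and 5617, 6852 and 7537 in the weaned libraries (0.51 ± 0.42, 0.25 without feeding replicate 2). All 3 had the groups apart, but with known microRNAs scaled alone miR-146a-5p and miR-150 overlapped. All 3 were named after their values were seen. The most abundant member, miR-181a, overlapped at 23798, 22662 and 28322 in the feeding and 27009, 25359.5 and 21859.9 in the weaned libraries (-0.01 ± 0.53).

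Of the inflammation and mucosal injury list, 11 of 13 members were above 0, beside 66.4% of all known microRNAs, with a list median of 0.32. That median ran from 0.08 without feeding replicate 2 to 0.76 without feeding replicate 3. Both this list and that of lymphocytes hold miR-146a and miR-155, so their counts are not separate. The vascular microRNA miR-221-3p stood at 556, 388 and 689 in the feeding and 719, 923 and 854 in the weaned libraries, apart (0.61 ± 0.38, 0.32 without feeding replicate 2). With known microRNAs scaled alone its groups overlapped. A microRNA induced in many inflamed tissues, miR-21, overlapped at 44347, 61259 and 60383 CPM in the feeding and 36499.8, 69768 and 69723 in the weaned libraries, and its difference of 0.08 ± 0.63 turned to -0.05 with known microRNAs scaled alone. In mouse, miR-31 promotes repair of the gut epithelium, and here it was at 3463, 2915 and 1577 in the feeding and 533, 1917 and 2796 in the weaned libraries (-0.60 ± 0.51, -0.36 without feeding replicate 1 and -1.11 without weaned replicate 3), and at -0.17 without weaned replicate 1. The myeloid list had 2 of 4 members above 0, and its most abundant member miR-142-3p stood at 163, 192 and 395 in the feeding and 247, 252 and 437 in the weaned libraries (0.32 ± 0.49).

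Red blood cell miR-451 stood at 2271, 1329 and 2816 CPM in the feeding libraries and 4210.1, 3039.6 and 3703 in the weaned ones, with the groups apart (0.77 ± 0.32, 0.41 without feeding replicate 2; edgeR, adjusted p = 0.847). Other red cell microRNAs gave smaller values: miR-486 overlapped with a difference of 0.13 ± 0.48, and miR-144, encoded within the same cluster, stayed under 1 CPM in each library (-0.24 ± 1.29). Of the endothelium list, 4 of 5 members were above 0, beside 66.4% of all known microRNAs. Its median was 0.32 (0.10 without feeding replicate 1 to 0.59 without feeding replicate 3). The most abundant member, miR-126-3p, was the 1 below 0 and overlapped. It stood at 15187, 13633 and 13105 in the feeding and 9946, 15747 and 13589 in the weaned libraries (-0.09 ± 0.26).

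Neuronal microRNAs were above 0 in 13 of 17 members, and in 12 of 17 with known microRNAs scaled alone. Of all known microRNAs, 66.4% and 54.2% were above 0 on these scales. The median of the neuronal list was 0.54 (0.31 without feeding replicate 2 to 0.88 without weaned replicate 3). The list includes the miR-129 and miR-218 names, which may share reads, so its members may not all be separate microRNAs. Levels of miR-124a, specific to neurons, were 8.34, 4.86 and 4.07 CPM in the feeding and 13.3, 11.9 and 9.10 in the weaned libraries, apart (0.99 ± 0.50; edgeR, adjusted p = 0.847). With known microRNAs scaled alone its groups overlapped by a small margin. Levels of miR-137 were 0.606, 1.51 and 0.909 in the feeding and 6.11, 2.27 and 1.98 in the weaned libraries, apart at a low level (1.77 ± 0.87, 1.08 without weaned replicate 1). Levels of miR-9, highest in weaned replicate 1, were 46.5, 57.6 and 75.8 in the feeding and 181, 74.6 and 77.03 in the weaned libraries (0.89 ± 0.49, and 0.34 without that library). The most abundant member, miR-128, overlapped at 1027, 923 and 1168 in the feeding and 1036, 611 and 1357 in the weaned libraries (-0.05 ± 0.34). Both miR-124a and miR-9 were named after their values were seen.

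**Figure D5:**
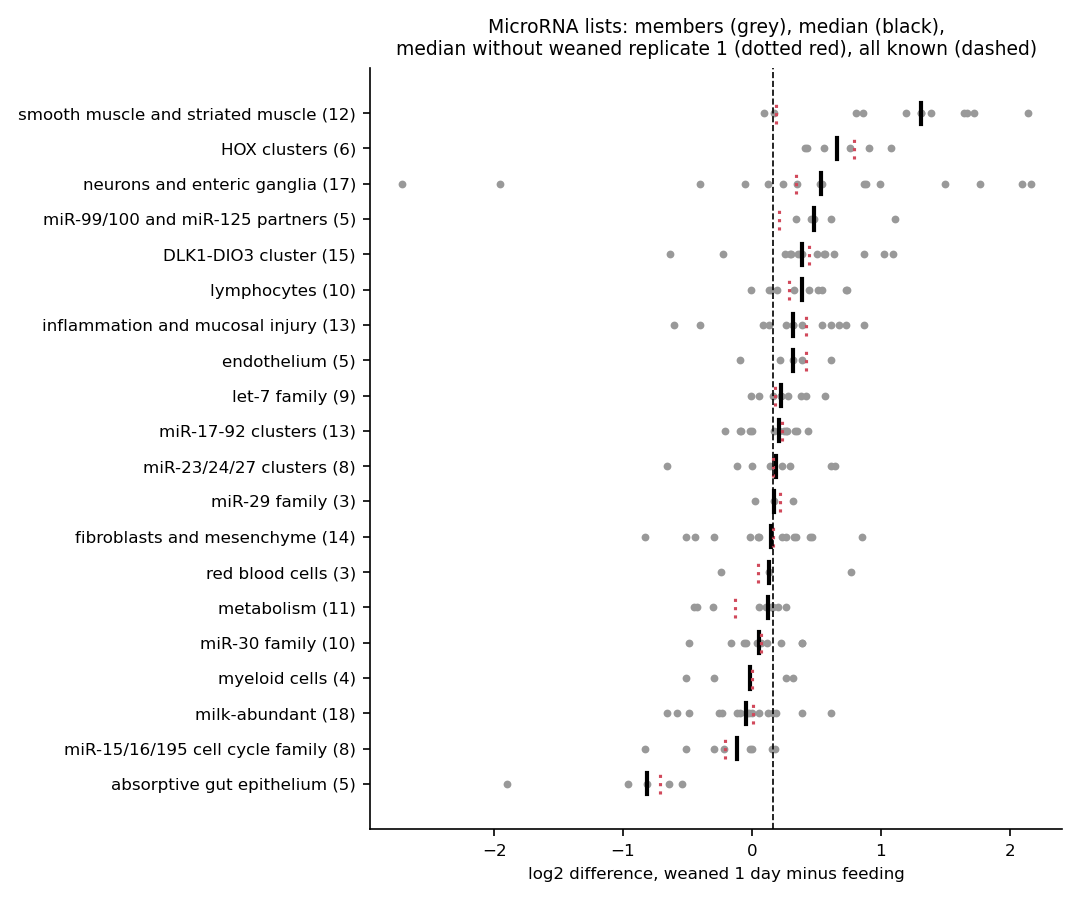
Log2 differences (weaned 1 day minus feeding) of the members of each list with at least 3 tested members (number in brackets); grey points are microRNAs, black bars list medians, dotted red bars medians without weaned replicate 1, and the dashed line the median of all known microRNAs. The muscle median moves from 1.31 to 0.19 without that library, while the HOX and gut epithelium medians move little.

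MicroRNAs listed for the imprinted DLK1-DIO3 cluster, mostly rare in this tissue, were above 0 in 13 of 15 members, beside 66.4% of all known microRNAs. The list median was 0.39. The list also holds the 2 arms of miR-2320, whose precursor the RefSeq annotation places on chromosome 6, apart from miR-127 and miR-493 of the cluster on chromosome 7. Without these arms 11 of 13 were above 0, with a median of 0.50, and 0.17 without feeding replicate 2 to 0.90 without feeding replicate 3. For the whole list the median ran from 0.17 without feeding replicate 2 to 0.89 without feeding replicate 3. In the cluster miR-127 was the most abundant, at 108, 117 and 311 CPM in the feeding and 242, 183 and 229.9 in the weaned libraries with overlap (0.29 ± 0.67), while miR-2320-5p stood at 571, 383 and 429.7 and 695, 557 and 559.8 (0.39 ± 0.40). The name miR-127 was added after its values were seen. The largest and smallest differences belonged to miR-493-5p (1.10 ± 1.19, 0.57 without weaned replicate 1) and miR-370 (-0.63 ± 0.75, -0.96 without feeding replicate 2 and -0.13 without feeding replicate 3), both under 10 CPM in each library. Fibroblast and mesenchyme microRNAs were above 0 in 9 of 14, with a median of 0.15, near that of all known microRNAs.

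MicroRNAs abundant in milk, whose supply ends at weaning, were above 0 in 7 of 18 members, with a median of -0.04 (-0.18 without feeding replicate 2 to 0.09 without feeding replicate 1, with 4 to 11 above 0). The most abundant, miR-191, stood at 76453, 60025 and 68749 CPM in the feeding and 74441, 69917 and 79090.3 in the weaned libraries (0.12 ± 0.20, and 0.00 with known microRNAs scaled alone). Levels of miR-26a were 68198, 50306 and 48173 in the feeding and 53887, 49675 and 60249.6 in the weaned libraries (-0.03 ± 0.23). Levels of miR-148a-3p, among the most abundant in the milk of mammals, were 128, 170.4 and 234 in the feeding and 155, 141 and 219.9 in the weaned libraries, with overlap (-0.04 ± 0.37). The lowest was miR-22-3p, described above, and the highest miR-27b-5p (0.61 ± 0.66, 0.15 without feeding replicate 1 and 0.99 without feeding replicate 2), whose sister arm miR-27b-3p was at -0.11 ± 0.46.

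Families tied to growth gave small differences. The miR-17-92 clusters were above 0 in 9 of 13, beside 66.4% of all known microRNAs. Their median was 0.21 (-0.12 without weaned replicate 3 to 0.38 without feeding replicate 3, with 4 to 11 above 0). In them miR-92a stood at 36480.2, 31474 and 33881 CPM in the feeding and 28877, 31717 and 41262 in the weaned libraries (0.00 ± 0.28, and -0.13 with known microRNAs scaled alone). The miR-15, miR-16 and miR-195 family, which slows the cell cycle, was above 0 in 2 of 8, with a median of -0.12 (-0.32 without weaned replicate 3 to 0.12 without weaned replicate 2). In it miR-16 stood at 13987, 17208 and 20912 in the feeding and 15587, 13185 and 22694 in the weaned libraries (-0.02 ± 0.38), and miR-503 was low but apart (2.29, 3.02 and 2.15 against 1.37, 1.49 and 1.34; -0.83 ± 0.77). The median was 0.05 for the miR-30 family (6 of 10 above 0), 0.17 for miR-29 (3 of 3), 0.18 for the miR-23, miR-24 and miR-27 clusters (5 of 8) and 0.12 for the metabolism list (8 of 11). With 1 library left out, the medians of these 4 lists lay between -0.17 and 0.34, and each was on both sides of 0 except that of the miR-23, miR-24 and miR-27 clusters. The p53-related miR-34 family had 1 of 2 tested members above 0. Its median was -0.02 (-0.29 without weaned replicate 2 to 0.22 without weaned replicate 1). In it miR-34a was at 0.29 ± 0.30 and the other member at -0.34. For the hypoxia microRNA miR-210 the difference was -0.01 ± 0.48.

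A few microRNAs were set by 1 weaned library. Levels of miR-224, an X-linked microRNA, were 0.942, 0.591 and 0.861 CPM in the feeding libraries and 1.11, 20.1 and 1.93 in the weaned ones. The groups were apart, but the difference of 3.26 ± 1.34 was 0.92 without weaned replicate 2. Levels of miR-708-5p were 44.1, 44.2 and 51.3 in the feeding and 127, 59.1 and 62.8 in the weaned libraries, apart (0.83 ± 0.42, and 0.39 without weaned replicate 1), and it was named after its values were seen.

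The 2 arms of a precursor mostly lay on the same side of 0. Of 58 precursors with both arms tested, 42 had arms on the same side of 0, and of the 34 with both arms at 10 CPM or more, 25 did, with a median absolute difference of 0.16 between arms. The widest gaps there were in miR-30a (-0.48 ± 0.72 for the 5p arm and 0.39 ± 0.37 for the 3p arm) and miR-27b. Of 24 genomic clusters with precursors within 10 kb of each other, which hold 72 tested microRNAs, 15 had all members on the same side of 0. With 66.4% of known microRNAs above 0, unrelated microRNAs often share a side too. No base share was computed for arms or clusters. The largest cluster medians were those of miR-206 with miR-133b on chromosome 7 (1.46, and 0.51 without weaned replicate 1), miR-192 with miR-194a (-1.27) and miR-143 with miR-145 on chromosome 2 (1.09, and 0.10 without weaned replicate 1; 150578738 to 150580211).

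The groups weaned for 3 and 7 days were fitted with the same feeding libraries, so their differences share those libraries and are given side by side only. Known microRNAs held 25.3%, 48.3% and 53.6% of all counts in the 7-day libraries, against 49.1% to 66.8% in the feeding libraries. The part of this in the 7-day values was not tested. For miR-676-3p the mean stood at 2258 ± 825, 1126 ± 136, 1099.8 ± 8.39 and 279 ± 73.5 CPM in feeding and at 1, 3 and 7 days. At 7 days it passed the adjusted threshold against feeding (-3.01 ± 0.35; edgeR, adjusted p = 0.00572). The number of other small RNAs past the threshold at 7 days is not given here, so the call is not shown to be particular to miR-676-3p. Age at sampling is not given for the feeding piglets, so age and days since weaning cannot be told apart. The mean of miR-10b was 4158 ± 793, 7801 ± 1097, 7023 ± 1238 and 2657 ± 245 in the same order, so the 1-day and 3-day means lay above feeding and the 7-day mean below it.

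The mean of miR-194a was 45421 ± 24928, 12198 ± 4535, 60967 ± 15655 and 5318 ± 4388, that of miR-192 121907 ± 29644, 77970.5 ± 24890.3, 112636 ± 8630.0 and 50731 ± 7314 and that of miR-155-5p 962 ± 367, 1598 ± 73.8, 747 ± 218 and 675 ± 467, so 1 day had the lowest mean of the first 3 times for miR-194a and miR-192 and the highest of all for miR-155-5p. From 1 to 3 days miR-194a differed by 2.32 ± 0.81 (edgeR, adjusted p = 0.578) and miR-155-5p by -1.10 ± 0.55 (adjusted p = 0.578). From 1 to 7 days miR-10b differed by -1.55 ± 0.26 (adjusted p = 0.106).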

How the data were processed

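Small RNA was sequenced from pig intestine, and the deposited table lists, per the file headers, small RNA names with a count and a TPM value for each library. The deposited TPM equals counts scaled by the total of the library's own list (CPM) within 0.005, with no length term, and was not used further. Per the submitters' processing notes the build was Sscrofa 11.1, while the aligner and counting rule are unstated in those notes and labels. A name missing from a library's list was entered as 0, the counts of 8 repeated names were summed, and totals for exons, introns and intergenic sequence (20.0% to 40.4% of the 6 libraries) belong to no small RNA and were omitted.

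Counts of all named small RNAs were tested with edgeR 4.0.16 (quasi-likelihood, TMM, two-sided; R 4.3.3) in 1 fit of 4 group means over all 12 libraries. Small RNAs were kept by filterByExpr (minimum count 10, minimum total 15), which left 2453, and p-values were Benjamini-Hochberg adjusted over them, with a threshold of 0.05. Biological variation between libraries (edgeR's coefficient) was 129% for all small RNAs and 45.81% in a fit of known microRNAs alone. DESeq2 1.42.0, limma 3.58.1, other scalings, no filter, the 6 libraries alone, left-out libraries and, added after seeing the data, names summed by number and the deposited totals as scale were alternatives. The procedure was tested on simulated data. Shares were compared by exact permutation (SciPy 1.17.1). Standard errors and p-values reflect the spread between libraries, and PCR copies are not told apart. No 2 of the 6 libraries held identical counts.

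The comparison and the 25 lists were chosen with earlier results of these data known. Named were the 10 known microRNAs of smallest p in each direction, the 10 most abundant, of each list the most abundant and, with 4 or more tested members, the extreme ones, and the 5 largest differences in each direction at 100 CPM or more. Of the 295 tested, 275 matched a precursor by name in the RefSeq annotation of Sscrofa 11.1, 233 of them at 1 place. Coordinates are those of precursors. Near-identical names can share reads, so their single values are uncertain.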

Additional observations from a re-analysis of the deposited data

How the results depend on the processing

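Of 86 microRNAs named, 71 by the rule and 15 after their values were seen, 59 kept their direction in all 13 alternatives to the main processing (names summed not counted), and 27 turned in 1 or more; the values that turned were near 0 for most, and the cause was not tested. Calls at the adjusted threshold numbered 0 in the edgeR fits with DESeq2 size factors, with known microRNAs alone, with the 6 libraries only, with names summed and without each library, and 0 with limma. DESeq2 gave 20 (1 known microRNA, miR-218b) and the fit without a filter on low counts 23 (1 known, miR-194a). No paired analysis was possible because the library numbers of the labels are not shared between the groups.

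At an unadjusted p under 0.05, 8 known microRNAs were higher: 5 with DESeq2 size factors and with limma, and 2 to 10 with 1 library left out (2 without feeding replicate 2, 3 without feeding or weaned replicate 1). Lower were 6: 3 with names summed, and 2 to 9 with 1 library left out (2 without feeding replicate 1 or weaned replicate 2). In the fit of known microRNAs alone, 9 were higher and 9 lower. Left-out libraries, added there after seeing the data, gave 4 to 12 higher (4 without weaned replicate 1, 5 without feeding replicate 2) and 4 to 20 lower, with 16 lower in the 6 libraries only. The lower count was 4 without feeding replicate 1, 5 without weaned replicate 2, 10 without weaned replicate 3, 12 without feeding replicate 3 and 20 without the first library of the 7-day group.

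Groups apart upward numbered 38, and 14 with known microRNAs alone. With 1 library left out, where fewer libraries make it easier to be apart, they numbered 46 to 73 (57 without weaned replicate 1). Groups apart downward numbered 13: 20 with known microRNAs alone, 5 with names summed, 7 on the deposited library totals, and 17 to 31 with 1 library left out (19 without weaned replicate 1). The difference in the share of counts on known microRNAs ran from -0.841 (without feeding replicate 2) to 8.02 percentage points.

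Log2 differences turned when names of 1 number were summed for miR-218b (0.77, a sum that ran from -0.24 without weaned replicate 1 to 1.15 without weaned replicate 3), miR-129b (0.81), miR-24-2-5p (0.30), miR-30c-5p (-0.054), miR-15a (-0.15), miR-181a (0.038), let-7i (0.25) and miR-23a (0.20). They turned with known microRNAs alone for miR-191 (-0.0046), miR-378 (-0.022), miR-21 (-0.046), miR-490 (-0.040), miR-29a (-0.11) and miR-92a (-0.13). With DESeq2 or its size factors they turned for miR-21 (-0.027), miR-29a (-0.087) and miR-92a (-0.11), with the 6 libraries only for miR-29a (-0.029) and miR-92a (-0.053), and for miR-92a also with limma (-0.015) and without the filter (-0.0037).

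With 1 library left out at a time, the log2 difference ran from -0.022 to 1.71 for miR-143-3p, from -0.13 to 1.80 for miR-133a-3p and from -0.14 to 1.57 for miR-133b, the low ends without weaned replicate 1. The range was -0.087 to 1.76 for miR-196b-5p, -0.068 to 0.77 for miR-196a, -0.45 to 1.96 for miR-490, -0.32 to 0.70 for miR-199a-3p and -0.062 to 0.34 for miR-21. It was -0.050 to 0.21 for miR-191, -0.013 to 0.40 for miR-15a, -0.13 to 0.31 for miR-378, -0.064 to 0.12 for miR-29a, -0.17 to 0.093 for miR-181a and -0.087 to 0.086 for let-7i. It was -0.18 to 0.095 for miR-23a, -0.16 to 0.11 for miR-92a, -0.0035 to 0.82 for miR-142-3p, -0.15 to 0.74 for miR-19a and -0.72 to 0.019 for miR-193a-3p. It was -0.086 to 0.96 for miR-127, -0.093 to 0.37 for miR-7, -0.25 to 0.073 for miR-126-3p, -0.34 to 0.20 for miR-128, -0.46 to 0.16 for miR-30d, -0.17 to 0.15 for miR-26a, -0.27 to 0.14 for miR-16 and -0.36 to 0.18 for miR-210.

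Limits are the 3 libraries per group, with a median standard error of 0.52 in log2, and the 42 known microRNAs with too few counts to be tested, none above 13 counts in a library of the 6.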

Other observations

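Other small RNA classes gave overlapping shares of the counts that carry a small RNA name. Rfam families, which cover ribosomal, transfer and small nuclear RNA pieces, took 13.5% ± 2.39 after 1 day of weaning and 15.3% ± 1.06 in feeding piglets (SD, n = 3; exact permutation test, p = 0.4). Predicted microRNAs took 1.49% ± 0.202 and 1.42% ± 0.221 (exact permutation test, p = 0.6). Predicted piRNAs took 0.647% ± 0.0666 and 0.741% ± 0.145 (exact permutation test, p = 0.6). Of 706 predicted microRNAs tested 403 lay above 0 on the log2 scale, with a median of 0.15, and of 1202 predicted piRNAs 482 did, with a median of -0.01.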
